A study of Mus musculus with 36 samples.

Results

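Granulocyte-macrophage progenitors (GMPs) had 9250 regions of open chromatin that were called as peaks in all 4 GMP libraries and in none of the other 32 libraries of the series. The regions were obtained by merging the peaks of all 36 ATAC-seq libraries wherever they overlapped by 1 bp or more, which gave 105005 regions, and the GMP-only regions were chosen by these measured calls. They made up 8.81% of the merged regions and 21.04% of the 43975 regions called in all 4 GMP libraries. Because the calls chose the members, that they are open in GMPs and not called elsewhere is a definition and not a finding.

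ATAC-seq uses a transposase that inserts adapters into accessible DNA, and a peak is an interval in which the inserted fragments exceed the local background. The mice were female C57BL/6 animals with no genetic change or treatment in the labels, aged 10 weeks (young) or 20 months (aged). GMPs were sorted from bone marrow as c-kit+, CD34+ and FcgR+ cells that were Lin- and Sca-1- and that the labels call IL-7- (the antibody named in the study was to the receptor, IL-7Rα), with 2 young and 2 aged libraries. The other 32 libraries came from hematopoietic stem cells (HSCs, 4 per age) and from the multipotent progenitors MPP1 to MPP4, megakaryocyte-erythroid progenitors (MEPs) and common lymphoid progenitors (CLPs), with 2 per age each. Each library was made from 20000 cells. The study describes marrow pooled by age and sorted in duplicate, and it calls the ATAC-seq replicates biological. The p-values measure the spread between libraries, which may in part be technical.

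GMPs descend from HSCs through multipotent progenitors and give rise to neutrophils and monocytes. Their identity depends on the transcription factors C/EBPα and PU.1, with C/EBPε acting later in neutrophil granule formation and IRF8 favouring the monocyte branch. Distal regions that become accessible in 1 cell type usually act as enhancers, while most promoters are open in many cell types.

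The sequences below are the 201 bases around the peak summit, on the plus strand of mm10 (GRCm38), of the strongest GMP-only region and of the strongest one nearest to genes that define neutrophil and monocyte precursors. They are shown because a short motif near the summit was more frequent in these regions than in the catalogue. Capitals mark matches to a C/EBP motif (TTGCNNAA), a PU.1 motif (GAGGAAGT) or a RUNX motif (TGTGGTT) on either strand. The windows are chr9:122138763-122138963 (intron of Snrk), chr11:87779547-87779747 (an intron of Tspoap1, upstream of Mpo), chr4:126017746-126017946 (intergenic, upstream of Csf3r), chr8:120741109-120741309 (intron of Irf8), chr10:79886155-79886355 (promoter of Elane), chr14:54712931-54713131 (promoter of Cebpe) and chr10:117285065-117285265 (intergenic, upstream of Lyz2). chr9:110419620-110419820 and chr2:32387801-32388001 are promoters of the late neutrophil genes Ngp and Lcn2, and were added after their values were seen.
Snrk: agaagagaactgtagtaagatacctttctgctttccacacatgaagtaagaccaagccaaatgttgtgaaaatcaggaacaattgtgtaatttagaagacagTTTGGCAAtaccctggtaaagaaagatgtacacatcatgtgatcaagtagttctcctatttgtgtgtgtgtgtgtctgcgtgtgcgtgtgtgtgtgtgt
Mpo: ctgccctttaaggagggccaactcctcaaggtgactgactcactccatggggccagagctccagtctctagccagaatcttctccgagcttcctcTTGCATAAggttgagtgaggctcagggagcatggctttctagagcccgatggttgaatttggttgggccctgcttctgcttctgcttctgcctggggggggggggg
Csf3r: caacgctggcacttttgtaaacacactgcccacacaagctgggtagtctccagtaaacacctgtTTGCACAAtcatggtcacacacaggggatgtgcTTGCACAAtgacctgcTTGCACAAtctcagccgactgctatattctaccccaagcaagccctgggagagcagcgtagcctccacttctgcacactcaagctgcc
Irf8: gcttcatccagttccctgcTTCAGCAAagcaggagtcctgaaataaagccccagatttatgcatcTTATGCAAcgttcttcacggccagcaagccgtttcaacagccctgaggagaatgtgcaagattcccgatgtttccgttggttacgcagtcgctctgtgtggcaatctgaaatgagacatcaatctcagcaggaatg
Elane: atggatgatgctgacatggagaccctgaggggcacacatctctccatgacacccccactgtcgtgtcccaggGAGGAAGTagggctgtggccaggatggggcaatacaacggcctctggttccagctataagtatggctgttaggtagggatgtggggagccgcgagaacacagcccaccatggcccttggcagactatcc
Cebpe: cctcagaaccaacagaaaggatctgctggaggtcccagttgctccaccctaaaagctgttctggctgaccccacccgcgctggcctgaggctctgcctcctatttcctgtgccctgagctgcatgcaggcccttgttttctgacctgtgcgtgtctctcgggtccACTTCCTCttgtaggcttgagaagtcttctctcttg
Lyz2: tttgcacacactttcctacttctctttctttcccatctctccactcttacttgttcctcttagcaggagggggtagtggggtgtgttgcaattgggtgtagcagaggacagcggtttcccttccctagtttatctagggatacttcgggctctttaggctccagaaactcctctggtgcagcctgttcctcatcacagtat
Ngp: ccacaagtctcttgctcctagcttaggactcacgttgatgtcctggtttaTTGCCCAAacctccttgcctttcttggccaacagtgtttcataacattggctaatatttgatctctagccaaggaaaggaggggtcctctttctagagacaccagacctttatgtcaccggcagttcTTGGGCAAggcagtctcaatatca
Lcn2: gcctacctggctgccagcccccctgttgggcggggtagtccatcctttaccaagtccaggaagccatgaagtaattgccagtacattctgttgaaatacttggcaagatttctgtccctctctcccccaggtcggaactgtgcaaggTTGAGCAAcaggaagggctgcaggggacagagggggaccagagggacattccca

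In the Snrk region the C/EBP match TTTGGCAA began 2 bp after the summit, and in the Mpo region the match TTGCATAA began 5 bp before it. The Csf3r region held 3 copies of the same match, TTGCACAA, of which the nearest began 3 bp before the summit. The Irf8 region held 2 C/EBP matches and the Ngp promoter 2, while the Lcn2 promoter held 1. The Elane and Cebpe promoters held a PU.1 match and no C/EBP match, and the Lyz2 region held none of the 3 motifs. A match describes the letters in the window and does not show that a factor was bound.

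The labelled cell type was checked at the promoters of marker genes. The promoters of Elane (neutrophil elastase), Csf1r (the M-CSF receptor) and Cebpe were called in all 4 GMP libraries and in no other library. The promoter of Mpo (myeloperoxidase) was called in all 4 GMP libraries and 1 MPP3 library, which kept it outside the rule. Those of Cd34, Kit and Fcgr3, whose products were used in the sort, were called in all 4 GMP libraries, but also in all 4 libraries each of MPP2, MPP3 and MPP4, and Cd34 and Kit in all 8 HSC libraries too, so these calls do not set GMPs apart. The same holds for Csf3r, Irf8 and Cebpa, with promoters called in all 4 GMP libraries and in 2, 4 and 8 of the HSC libraries. Prtn3 (proteinase 3) and Spi1 (PU.1), both GMP markers, had no promoter region in any library. The erythroid genes Gata1 and Klf1 had no promoter region in any library, while the promoters of the lymphoid genes Il7r and Ebf1 were called in all 4 GMP libraries and also in all 4 and 3 of the 4 CLP libraries, with further calls in MPPs for both and in HSCs for Ebf1.

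The GMP libraries held 52576 to 63288 peaks and the other 32 held 9581 to 40157, although the study subsampled mapped reads to 1 common number. The narrowest peak was 132 to 139 bp in the GMP libraries and 163 to 191 bp in the others, and the part of peak width in the calls was not tested. The count of GMP-only regions moves with the number of peaks. Each GMP library was held to its 40157 peaks of smallest q-value, the number in the fullest other library. Then 4566 regions met the rule, an alternative chosen after seeing the data. When each library was held in the same way to 9581 peaks, 900 regions met the rule. A peak missing from another library was not detected at this depth and threshold, and the region need not be closed there.

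The same rule gave 494 regions for CLPs and 281 for MEPs. The MEP libraries held 9581 to 11041 peaks, against 27087 or more in the remaining libraries outside GMPs. The part of peak number in the MEP counts was not tested. No region was called in all 4 GMP and all 4 MPP3 libraries alone, and 424 were called in all 4 GMP and all 4 CLP libraries alone. Just outside the rule were 2231 regions called in all 4 GMP libraries and in exactly 1 other. The single extra call came from MPP3 in 726 of them (181.5 per library), from CLPs in 632 and from MPP4 in 392, but from HSCs in 174 (21.75 per library) and from MEPs in 10. On the other edge, 3768 regions were called in 3 GMP libraries and nowhere else, of which 1765 lacked the call in young GMP replicate 1, the GMP library with fewest peaks. The median of the lowest fold enrichment over the GMP libraries was 7.86 in members, 8.64 in regions with 1 other call and 6.06 over the 3 called libraries of the last set.

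**Figure D1:**
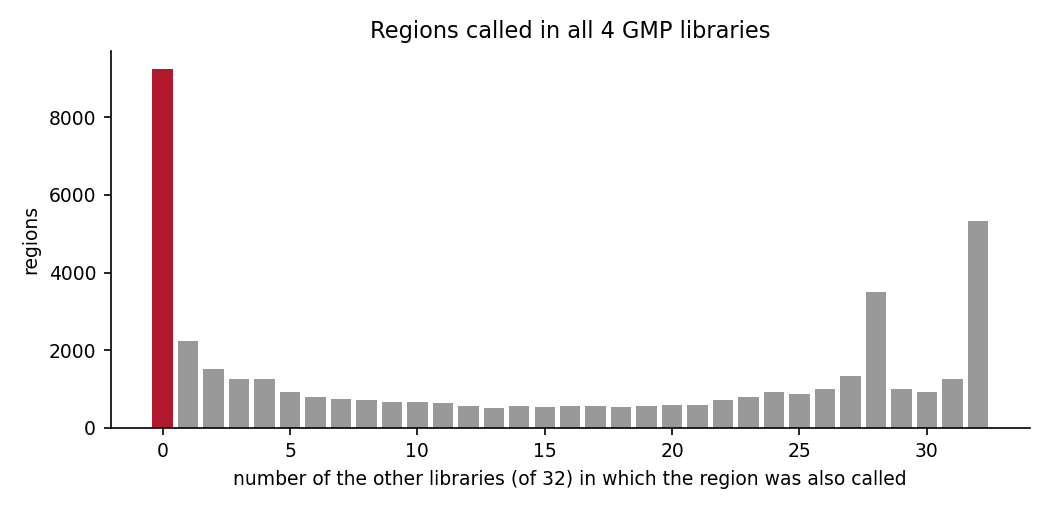
Regions called in all 4 GMP libraries, by the number of the other 32 libraries that also called them. The bar at 0 holds the 9250 GMP-only regions, the bar at 1 holds 2231 and the bar at 32 holds the 5335 regions called in every library.

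The strength of a peak was taken as the fold enrichment of its summit over the local background. The median over the GMP-only regions was 9.56 in young GMP replicate 1, 10.6 in young GMP replicate 2, 9.79 in aged GMP replicate 1 and 9.62 in aged GMP replicate 2. The same medians were 12.7 to 14.04 in regions that GMPs shared with at least 1 other library, and 18.5 to 20.3 in the regions of all 36 libraries, so the GMP-only median was the lowest of the 3 in each library. The sets differ in how many other libraries passed the calling threshold, so this order is not independent of the rule. The part of the rule in it was not tested. In bulk libraries a region open in few cells and a region weakly open in many cells cannot be told apart. Within members the fold enrichment ran from 2.29 to 33.3. The typical spread over the 4 libraries was a factor of 1.18 (median of the SD on the log scale, as a fold), and log2 values correlated across the 9250 regions with r = 0.747 to 0.783 between library pairs, a description over regions that share libraries.

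**Figure D2:**
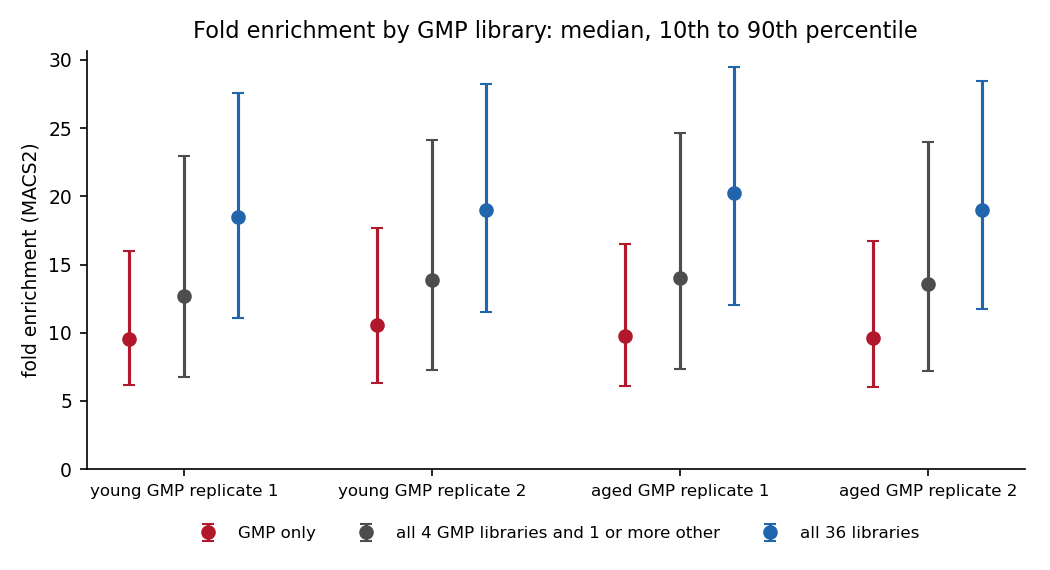
Fold enrichment in each GMP library for the GMP-only regions, regions called in all 4 GMP libraries and at least 1 other, and regions of all 36 libraries. Points are medians and bars run from the 10th to the 90th percentile of regions, and in each library the GMP-only median is the lowest of the 3. The sets are defined by calls, so this order is not independent of the rule.

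The median width of GMP-only regions was 261 bp, against 366.5 bp in CLP-only and 436 bp in MEP-only regions. The narrowest peak called was also smaller in the GMP libraries, as given above, and its part in these widths was not tested. A region spans all the peaks merged into it, so its width depends on how many libraries called it, and the 336 bp of the catalogue and 810 bp of the regions of all 36 libraries are not like for like. In 95.5% of them every GMP library gave a single summit, and the summits of the 4 libraries lay within 50 bp of each other in 81.3%. The lowest of the 4 significance values was at least 10 (as -log10 of the q-value) in 5903 members and under 4 in 94, close to the calling threshold.

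The strongest GMP-only regions were distal to promoters. Regions were ranked within each GMP library by fold enrichment, and the lowest of the 4 percentiles set their order. The first was in an intron of Snrk, a kinase gene (chr9:122138735-122138981). Its fold enrichment was 31.1 and 31.6 in the young and 30.4 and 32.6 in the aged libraries. The second lay 7596 bp upstream of Igsf10, at 32.1, 29.9, 33.3 and 27.8 in the same order of libraries. Both regions stood above the 97th percentile of all peaks in each GMP library, and the values of the ages overlapped.

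The third strongest was in an intron of Maml3, a Notch co-activator (28.9 ± 2.67, mean ± SD, n = 4), and the fourth in an intron of Fam49b, a regulator of actin remodelling (28.1 ± 1.45). Others among the 10 strongest lay 132201 bp upstream of Bcl6, a transcriptional repressor (28.3 ± 3.35), and 192558 bp upstream of Kit, the stem cell factor receptor (27.2 ± 1.36). The remaining regions of the 10 were nearest to Sec14l4 (29.2 ± 2.55), Dync2li1 (25.8 ± 0.563), Nup107 (26.3 ± 0.961, within an intron of the GTPase gene Rap1b) and Mab21l1 (27.2 ± 1.44, within an intron of Nbea). Of these 10 regions, 6 held a C/EBP match and 0 held a PU.1 match within 100 bp of the summit. In the strongest 10% of members these shares were 44.97% and 9.51%, so the counts do not set the 10 regions apart.

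Only 287 of the GMP-only regions (3.10%) were centred in a promoter, taken as the 1000 bp before and 100 bp after a transcription start site (TSS). The share was 12.1% in the catalogue, 26% in regions that GMPs shared with other libraries and 71.5% in the regions of all 36 libraries. It was as low in other restricted sets, at 1.62% in CLP-only, 3.92% in MEP-only and 1.65% in regions of GMPs and CLPs alone. Introns held 46.3% and intergenic sequence 47.0% of members, UTRs 2.18% and coding exons 1.41%. The median distance to the nearest TSS was 22095 bp, against 97.0 bp in the regions of all 36 libraries, 18733 bp in the catalogue, 31732 bp in CLP-only and 17776 bp in MEP-only regions.

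The strongest promoter members belonged to genes of varied function. Degs1, which makes ceramide from dihydroceramide, had a fold enrichment of 20.2 ± 1.13 (SD, n = 4 here and below). Gpld1, a phospholipase that cleaves GPI anchors, had 19.5 ± 1.94, and Orm1, an acute-phase protein, had 18.6 ± 2.28. Ldhb, a lactate dehydrogenase subunit, had 17.5 ± 0.981, and Mgst2, which acts in leukotriene synthesis, had 16.6 ± 1.79. Mcpt8, a basophil protease, had 18.7 ± 1.78, and Ngp, a neutrophil granule protein, had 15.5 ± 0.734. The other promoters of the 10 strongest belonged to BC049762 (18.2 ± 1.92), Galnt9 (16.3 ± 0.678) and Manbal (17.1 ± 1.34). A C/EBP match lay within 100 bp of the summit in 6 of these 10, and in 34.03% of all members.

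Members were assigned to the nearest TSS of a protein-coding gene, which is not always the gene that a distal region regulates. In all, 5424 of 21840 genes (24.8%) were nearest to at least 1 member, and 194 were nearest to 5 or more. A promoter region was called in all 8 HSC libraries for 51.7% of the genes with a member and for 61.3% of those with 5 or more. The share was 49.4% of the 17843 genes nearest to any region. A GMP-only promoter was present in 2.05% of the genes with a member and 0.622% of the genes nearest to any region. Such a promoter is itself a member, so the first of these 2 shares is higher by construction. Genes with more regions around them have more chances to be nearest to a member.

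The most members lay nearest to Pde4d, a cAMP phosphodiesterase, with 17 of the 106 regions nearest to it. Trps1, a GATA-type repressor, had 16 of 68, and Cited2, a CBP/p300-binding regulator, had 15 of 73. Bcl2l11, which encodes the pro-apoptotic protein BIM, had 13 of 52, and Jarid2, a partner of the polycomb repressive complex, had 12 of 53. Foxp1, a forkhead factor, had 12 of 91, Gadd45g, a growth arrest gene, had 11 of 51, and Vav3, a guanine nucleotide exchange factor, had 11 of 52.

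Rhou (14 of 28) and Gas8 (11 of 29) also had high counts, but 20 of their members formed a single run at chr8:123555738-123618771. In this run the fold enrichment was 3.14 to 8.38, the median region was 84.8% soft-masked repeat and 0 of the 20 held a C/EBP match. Over all members, 699 regions (7.56%) were over 50% soft-masked, against 5.26% of the catalogue, and 7 of the 63 catalogue regions on chromosome Y were members (11.1%, near the 8.81% overall), although the mice were female. The part of read placement in repeats in these calls was not tested.

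Genes that mark the neutrophil and monocyte lineages were described from lists of known markers. Of the 9 primary granule and promyelocyte genes in the annotation, 7 were nearest to at least 1 GMP-only region, and members made up 12 of the 53 regions around these genes (22.6%). For late granule and neutrophil genes the counts were 9 of 15 genes and 13 of 57 regions (22.8%). Over all genes they were 24.8% of genes and 8.82% of regions.

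Primary granule genes encode the proteases and enzymes that are packed first in promyelocytes. The member nearest to Mpo lay 13943 bp upstream, with 15.99 and 17.3 in young and 13.2 and 14.1 in aged libraries. The Elane promoter had 10.8 and 9.50 in young and 13.2 and 12.005 in aged libraries. In both regions the ages did not overlap, in opposite directions, which was common: both aged values lay above both young values in 20.8% of the 43975 regions called in all 4 GMP libraries and below them in 13.3%. Over the 9250 members these shares were 14.6% and 19.5%. Neither region was called by the test of age given later. Srgn, which encodes the granule proteoglycan serglycin, had 3 members, the strongest at 17.1 ± 1.68, and Serpinb1a, an elastase inhibitor, had 3, the strongest at 10.7 ± 1.43. Ctsg (6.04 ± 0.386), Prss57 (8.53 ± 1.69) and Cst7 (7.28 ± 0.836) had 1 each. Prtn3 and Ms4a3 had none, and the promoter of Ms4a3 was called in all 4 GMP libraries, 2 MPP3 libraries and 1 MPP4 library.

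Late granule genes are used as neutrophils mature beyond the GMP stage. The promoter of Lcn2, a siderophore-binding lipocalin, was a member at 18.2, 16.5, 14.3 and 16.3 (young replicates, then aged), and that of Ngp was a member at 16.6, 15.02, 15.2 and 15.1. The ages overlapped for Ngp and did not for Lcn2, where the aged values were lower, as in 19.5% of members, and Lcn2 was not called by the test of age. A region 13336 bp downstream of the TSS of Cxcr2, a chemokine receptor of neutrophils, reached 18.4 ± 2.61. Cd177, Lyz2 (lysozyme) and S100a9 had 2 members each, and Mmp8, Mmp9 and S100a8 had 1 each. Ltf, Camp, Chil3, Retnlg, Itgb2l and Padi4 had none. Among NADPH oxidase subunits, Cybb and Ncf4 had 2 members each, with 0 at Cyba, Ncf1 and Rac2.

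Transcription factors of myeloid cells had members at 11 of 16 genes, with 39 of 401 regions (9.73%), a share near the 8.82% over all genes. Many regions lay around some of them: members were 8 of 65 at Runx1 (strongest 17.6 ± 1.36), 8 of 65 at Id2 (17.5 ± 0.622), 6 of 68 at Zeb2 (14.2 ± 3.18) and 3 of 17 at Gfi1, a repressor needed for neutrophils (11.7 ± 0.940). Irf8 had 2, the stronger of them within an intron at 9.42 ± 1.73, and Cebpe had 1, at its promoter (6.04 ± 0.444). Cebpa, Cebpd and Spi1, which encodes PU.1, had none. The promoters of Cebpa and Cebpd were called in all 8 HSC libraries.

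Cytokine and Fc receptor genes had members at 8 of 14 genes, with 14 of 124 regions (11.3%), against 8.82% of regions over all genes. The Csf1r promoter stood at 15.7 and 13.7 in young and 16.2 and 13.9 in aged libraries, so the ages overlapped. Ifngr1, the interferon gamma receptor, had 5 members (strongest 19.1 ± 1.20), Fcgr2b had 2 (19.2 ± 1.71) and Csf3r, the G-CSF receptor, had 1 (9.89 ± 0.901). Monocyte and macrophage genes had members at 9 of 15, with 23 of 174 regions (13.2%). A region in an intron of Tlr4, the endotoxin receptor, reached 22.8 ± 2.11, and regions at Cx3cr1 (19.2 ± 2.65) and Mpeg1 (16.9 ± 1.40) were also strong. Ly86 had 8 members, and the promoter of Ccr2, the chemokine receptor of inflammatory monocytes, was a member at 9.54 ± 1.18.

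Markers of other lineages were counted in the same way. Among HSC genes 3 of 12 (Meis1, Mllt3 and Prdm16) had a member, with 4 of 165 regions (2.42%). The counts were 6 of 14 erythroid and megakaryocyte genes, with 7 of 92 regions (7.61%), 8 of 17 lymphoid genes, with 12 of 131 regions (9.16%), and 4 of 10 dendritic cell genes, with 7 of 111 regions (6.31%). The share of genes in the last 3 lists (42.9%, 47.1% and 40%) was thus also above the 24.8% of all genes, while their share of regions was near or below 8.82%. Among mast cell, basophil and eosinophil genes 3 of 10 had a member, with 5 of 38 regions (13.2%), of which 2 lay at Mcpt8, 2 at Gata2 and 1 at Cpa3, while Prss34, Ms4a2, Fcer1a and Epx had no region at all. The part of other cells in the GMP gate was not tested.

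The sequence around the summits was not used by the rule. A C/EBP match (TTGCNNAA, either strand, within 100 bp of the summit) was present in 3147 of the 9247 GMP-only regions with a full window (34.03%). The share was 13.2% in the catalogue and 11.2% in regions that were not members. It was 11.8% in regions that GMPs shared with other libraries, 11.3% in those shared with CLPs alone, 5.67% in CLP-only, 6.05% in MEP-only and 4.35% in regions of all 36 libraries. These shares are descriptions over regions, without a test.

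Related motifs were also more frequent in members. The composite of a C/EBP and an ATF half-site (TTGCATCA) was present in 3.77% of members and 1.21% of the catalogue, and the motif of PAR bZIP factors such as HLF (TTANGTAA) in 5.01% and 2.34%. The palindrome TTGCGCAA, which is a subset of the C/EBP motif, was present in 0.519% and 0.177%. The MYB motif (AACNGTT) was present in 5.46% of members and 3.83% of the catalogue, but also in 5.67% of CLP-only regions and 6.13% of the regions of GMPs and CLPs alone.

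The motif of PU.1 (GAGGAAGT) was present in 10.7% of members, against 8.44% of the catalogue, 9.93% of regions that GMPs shared with others, 7.29% of CLP-only and 0.356% of MEP-only regions. It was higher, at 15.3%, in the regions of GMPs and CLPs alone. The RUNX motif (TGTGGTT) was present in 12.5% of members and 11.3% of the catalogue, with 24.3% in CLP-only regions. The shares for IRF (GAAANNGAA), at 8.81% and 8.26%, and for NF-kB (GGGANTTCC), at 1.47% and 1.43%, were close to each other.

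Several motifs were rarer in members than in the catalogue. The GATA motif (AGATAAG) was present in 2.07% of members and 3.86% of the catalogue, but in 23.1% of MEP-only regions. The E-box CAGGTG was present in 6.53% of members, 11.9% of the catalogue and 41.7% of CLP-only regions. The CTCF core (AGGGGGC) was present in 3.57% of members and 5.54% of the catalogue, and the ETS promoter motif (CCGGAAG) in 1.88% and 3.62%. AP-1 (TGACTCA) was present in 7.70% and 8.97%, and it is contained in the NFE2 motif (GCTGAGTCA, 0.865% and 1.33%). In all, 21 motifs were searched, and those not named here had member shares of 0.519% to 12.2%.

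**Figure D3:**
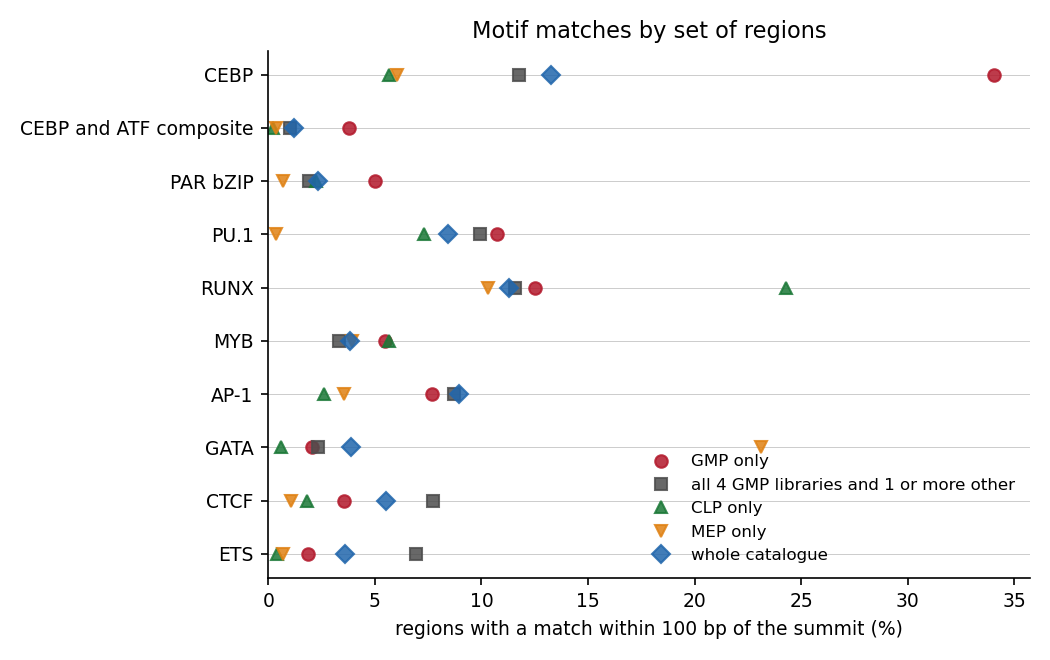
Share of regions with a match within 100 bp of the summit for 10 of the motifs, in 5 sets of regions. The GMP-only regions stand apart at the C/EBP motif (34.03% against 5.67% to 13.2% in the other 4 sets), the MEP-only regions at GATA (23.1%) and the CLP-only regions at RUNX (24.3%).

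C/EBP matches were most frequent at the summits of GMP-only regions. In the 20 bp around the summit 6.50% of members held the centre of a match, against 0.898% and 0.908% in the bins 180 bp to either side. In regions that GMPs shared with others the central bin held 1.60%, and the bins 180 bp away 0.851% and 0.779%. The summit of a region was the median over all libraries that called it. In shared regions it thus rests on more libraries and wider regions, and the positions are not fully like for like. The central values were 0.607% in CLP-only and 0.356% in MEP-only regions, which rest on 494 and 281 regions. A rise at the summit was not particular to C/EBP. In members PU.1 matches stood at 1.88% in the central bin, against 0.119% and 0.130% in the bins 180 bp away. RUNX matches stood at 2.23%, against 0.552% and 0.433%. In shared regions the central bin held 1.53% for PU.1 and 1.84% for RUNX. GATA matches did not rise in members (0.151%, against 0.173% and 0.227%).

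**Figure D4:**
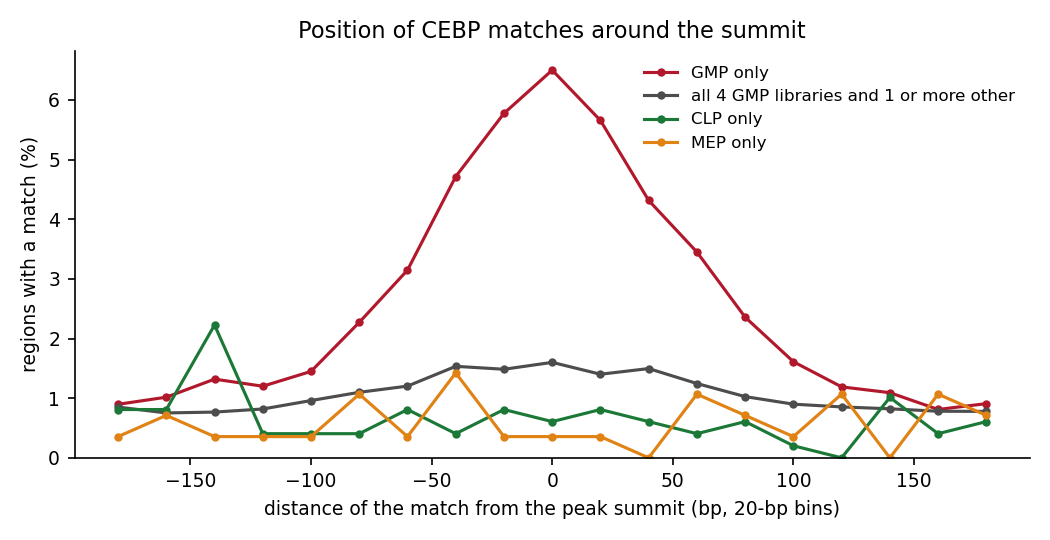
Share of regions with the centre of a C/EBP match in each 20-bp bin around the peak summit, for 4 sets of regions. The GMP-only regions rise to 6.50% at the summit, while regions shared with other libraries reach 1.60%.

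GMP-only regions had a lower G and C content than the catalogue (median 47.3% and 49.8%), and the C/EBP motif is rich in A and T. Among regions of 45% to 50% G and C, 34.5% of members and 13.7% of the other regions held a C/EBP match. The shares were 41.9% and 17.9% below 40%, and 20.9% and 4.93% at 55% and above.

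Stronger members held the motif more often. In the strongest 10% of members, 44.97% held a C/EBP match, and in the weakest 10%, 25.8%. The median fold enrichment was 9.59 in the 6100 members with no match, 10.4 in the 2664 with 1 match and 11.1 in the 483 with 2 or more. The order was the same in each of the 4 GMP libraries. PU.1 and C/EBP matches met in 205 members (2.22%), against 1.06% of the catalogue. C/EBP matches were present in 20.7% of members with a PU.1 match, against 34.03% of all members. In the catalogue these shares were 12.5% and 13.2%. Among regions with a RUNX match the C/EBP share was 35.2% in members and 14.6% in the catalogue. None of the 3 motifs was found in 4631 members (50.1%). At least 1 of them was found in 49.9% of members and 29.5% of the catalogue.

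The ages of the GMPs were compared because the rule used the calls and not the age. Both the rule and the reported fit needed a call in all 4 GMP libraries. A region called only in young or only in aged libraries was therefore left out, and the comparison says nothing about such regions. limma was fitted to the log2 fold enrichment, centred on the median of each library, of all 43975 regions called in the 4 GMP libraries, with p-values adjusted over all of them. A single region was called, and it was a GMP-only region: the promoter of Ces1d, a carboxylesterase, at chr8:93197713-93198017. Its fold enrichment was 7.79 and 11.5 in young and 24.1 and 26.3 in aged libraries, so both aged values lay above both young ones (log2 difference 1.38, SE 0.20, limma adjusted p = 0.0141). The call was lost with quantile normalisation (log2 difference 1.38, adjusted p = 0.063) and without centring (1.41, 0.351), where the difference was about as large. It was kept without young GMP replicate 1 (1.16, 0.0123) and replicate 2 (1.58, 0.0189) and lost without aged GMP replicate 1 (1.45, 0.301) and replicate 2 (1.29, 0.41). Each of these 4 fits leaves 1 library in an age, which is assumed to vary like the pair of the other age, so their p-values do not measure how stable the call is. With a replicate block the limma adjusted p was 4.24e-08, but the numbers do not show that the libraries are paired. The region was not among those tested when all 4 libraries needed a -log10 q of at least 10.

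Thus 1 of 9250 members was higher in aged GMPs (0.00227% of all tested regions were) and 0 were lower (0% of all tested regions). The replicate block called 10 members higher and 22 lower, where 49 and 43 of all tested regions were. At an unadjusted p under 0.05, 196 members (2.12%) were higher, where 3.17% of all tested regions were, and 557 members (6.02%) were lower, where 3.24% were.

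The regions with the next smallest p were not called in this fit, though all of them were with the replicate block. Regions nearest to Mettl15, Pik3c2g, Zfp966 and Cdh20 had log2 differences of 0.98 to 1.29 towards aged GMPs (limma adjusted p = 0.0897 to 0.25). For example, the region in an intron of Pik3c2g, a lipid kinase gene, stood at 10.9 and 11.3 in young and 23.5 and 21.4 in aged libraries. In the other direction, regions nearest to Socs6, Peli1, Arhgap28, Rala and Th had differences of -1.23 to -1.18 (limma adjusted p = 0.0682 to 0.25). The region 66593 bp upstream of Peli1, a ubiquitin ligase of innate signalling, stood at 14.4 and 17.5 in young and 6.73 and 7.21 in aged libraries. None of the 10 overlapped between the ages, which follows from choosing them by p.

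**Figure D5:**
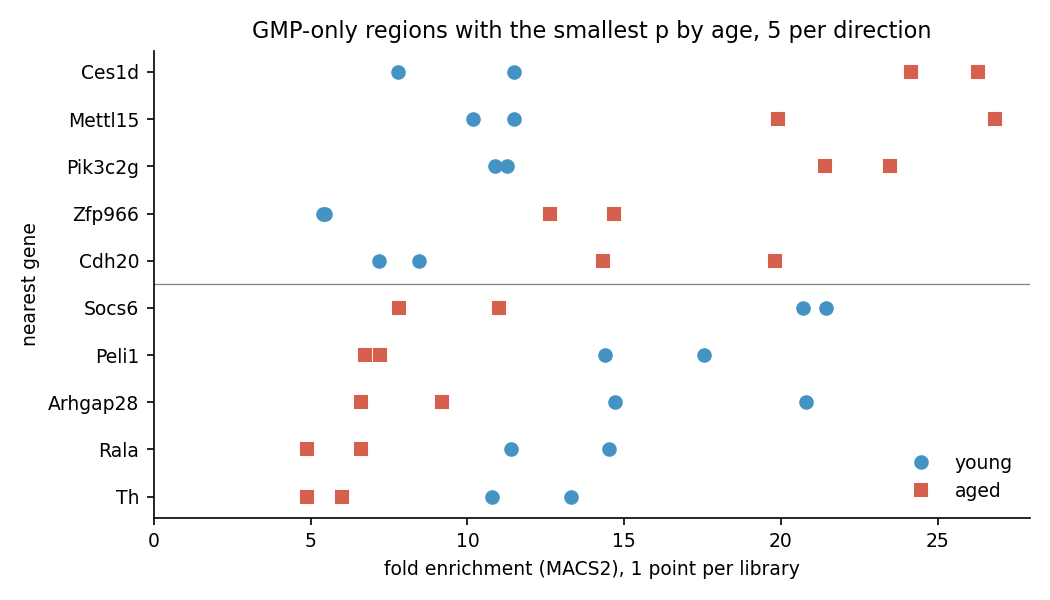
Fold enrichment of the GMP-only regions with the smallest p for age, 5 per direction, named by the nearest gene, with 1 point per library. Regions above the line were higher in aged and those below it lower in aged libraries. Only the Ces1d region passed the adjusted threshold in the reported fit, which had no replicate block.

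The median of aged minus young was -0.07 on the log2 scale over members (SE of a single region 0.25, median), -0.0305 without centring and -0.0314 with equal numbers of peaks per library, and it was 0.01 over regions called in another library too. It was above 0 in 39.9% of members and in 49.96% of all tested regions. The same sign held for members with mean fold enrichment under 8 (-0.05), from 8 to 12 (-0.07) and above 12 (-0.07), where the other regions had 0.00, 0.02 and 0.01, and it was -0.06 with and -0.07 without a C/EBP match. After centring, the median over members was -0.31 and -0.30 in young and -0.40 and -0.39 in aged libraries, which did not overlap (two-sided exact permutation test, n = 2 each, p = 0.333, the smallest this design allows). Without centring the median fold enrichment was 10.1 ± 0.717 in the young and 9.70 ± 0.121 in the aged libraries (SD, n = 2 per age, exact permutation p = 1.0). This difference of -0.368 turned to 0.264 without young GMP replicate 2 and to 0.400 with equal numbers of peaks per library.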

How the data were processed

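Single-read ATAC-seq (60 bp) libraries were size-selected at 240 to 360 bp. Per the paper's methods and the submitters' processing notes, the authors aligned reads to mm10 with Bowtie2, subsampled them with SAMtools and called peaks per library with MACS2 2.2.6. Here only the deposited peak lists were used: the fold enrichment (a ratio of summit signal to local background), the -log10 p-value and q-value, and a display score, which was not used. The deposited lists hold no read counts, so the study's count model could not be run, and the depth behind a value is not given by them.

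Peaks were merged and annotated in Python 3.11.15 with GENCODE M21 basic protein-coding transcripts, sequences came from RefSeq GRCm38.p6, and motifs were matched as exact letters. The highest entry per region and library was used, and motif windows were centred on the median summit of the libraries that called the region. Ages were compared with limma 3.58.1 (mean trend, Benjamini-Hochberg, threshold 0.05, age as the term). The fit was also run on simulated data with a single spread for all regions, which does not test it at the spread of the real data. Regions were named as the 10 strongest overall and at promoters, the 10 genes with most members, marker genes, and the 5 smallest p per direction. The members, motifs and gene lists were chosen with earlier results of these data known. The Csf1r window would fall on chromosome 18 and is left out. Azu1 was not in the annotation. Some listed genes are not reported here.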

Additional observations from a re-analysis of the deposited data

How the results depend on the processing

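The number of GMP-only regions, their promoter and C/EBP shares and the comparison of ages were recomputed with 1 choice changed at a time, and the other values were not. When peaks needed a -log10 q of 10 or more, GMP-only regions numbered 8905, of which 3.82% were promoters and 33% held a C/EBP match, and the median aged minus young log2 fold enrichment was -0.0501. With equal numbers of peaks per library the values were 900, 6.67%, 42.7% and -0.0314, and the aged minus young difference of the median fold enrichment turned from -0.368 to 0.400. With the GMP libraries held to the peak number of the fullest other library they were 4566, 3.13%, 38.4% and -0.0507, and with peaks covering 50% of the region the median was -0.0451. Promoters within 2000 bp to each side of a TSS made up 9.68%. C/EBP shares were 23.7% within 50 bp and 40.9% within 200 bp. The median was -0.0305 without centring, -0.0605 after quantile normalisation and -0.0596 in regions of -log10 q of at least 10 in all 4 libraries. In these 3 fits no region was called (0 in all, 0 of the members), against 1 as reported. The Ces1d region was not among those tested in the last of these fits, which therefore says nothing about its call.

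Leaving out each GMP replicate gave 9643 to 11015 regions (most without young GMP replicate 1), promoter shares of 3.06% to 3.18%, C/EBP shares of 32.3% to 33.9%, medians of -0.0911 to -0.056, 0 to 1 members higher and 0 lower in aged GMPs, and 0 to 3 regions called in all. These fits hold 1 library of an age, assumed to vary like the other age's pair, so their counts do not measure stability. The difference of the median fold enrichment ran from -0.705 to 0.264, turning without young GMP replicate 2. Leaving out each of the other 32 libraries gave 9251 to 9692 regions, most without young MPP3 replicate 2. The replicate block called 92 regions in all, 10 members higher and 22 lower, among them all 10 regions named for age (adjusted p = 4.24e-08 to 0.0178), but with 2 pairs, whose deviations correlated at 0.044, the numbers do not show that the libraries are paired. The causes of these changes were not tested. The number of libraries, 2 per age, and lists without counts limit the comparison of ages.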
